A study of Homo sapiens with 2 samples.

Results

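The 5 mature miRNAs described here come from 3 squamous epithelial hairpins: miR-203a, both arms of miR-205 and both arms of miR-31. They were taken by name, for their known roles in keratinocytes and squamous carcinoma, from 2038 mature miRNA names. All 5 were found in both libraries. The samples were 2 cultures of FaDu (spelled FadU in the labels), an established squamous carcinoma line of the hypopharynx, with 1 small RNA library each. The parental culture grew in RPMI-1640 with 10% FBS. The sphere culture, described in the labels as sphere-derived cancer stem cells, grew in DMEM-F12 to which N2 Plus Supplement and the growth factors EGF (10 ng/ml) and bFGF (10 ng/ml) had been added, and no serum is named for it. Both received penicillin and streptomycin. Medium, serum and growth form differ together between the cultures and cannot be told apart. The sphere label states an enrichment by culture, and no sorting of cells is named. With 1 library per group no difference below has a replicate check and no test between the cultures was possible.

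A miRNA is cut from a hairpin transcript, and 1 arm of the hairpin (5p or 3p) is usually kept while the other is degraded. The kept strand finds its target mRNAs mainly through its seed, bases 2 to 8. In stratified epithelium miR-203a is made as cells leave the basal layer, and in the cells that leave it represses the progenitor factor p63. miR-205-5p is a highly expressed epithelial miRNA that represses the ZEB factors of epithelial to mesenchymal transition, and miR-31-5p is linked to keratinocyte growth and is often high in squamous carcinoma.

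The mature sequences are shown because each member shown carries a seed of its own. A seed does not show how reads were assigned to names, and the treatment of multiply matching reads was not given. How far the values below include reads shared with other names was therefore not tested. They were taken from RefSeq (GRCh38.p14), which matched 4 of the 5 names, and the capitals mark the seed. The deposited name miR-203a gives no arm. It is shown with the 3p sequence, the arm that carries this name in earlier nomenclature, and its arm is not stated in the files.
miR-203a: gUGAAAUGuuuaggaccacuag
miR-205-5p: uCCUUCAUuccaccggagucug
miR-205-3p: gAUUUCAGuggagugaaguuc
miR-31-5p: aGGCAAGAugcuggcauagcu
None of the 4 seeds is shared with another mature miRNA in the RefSeq table. The closest other mature sequence lay 6 edits away for miR-203a (miR-203b-3p), 7 for miR-205-3p (miR-3182) and miR-31-5p (miR-10524-5p), and 8 for miR-205-5p (miR-6781-3p).

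The hairpins are shown to place the arms, with the members that have a mature sequence above in capitals. miR-31-3p comes from the unmarked 3′ side of MIR31 and is named only.
MIR203A: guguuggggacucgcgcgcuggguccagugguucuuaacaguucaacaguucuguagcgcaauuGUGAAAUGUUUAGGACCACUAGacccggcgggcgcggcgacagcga
MIR205: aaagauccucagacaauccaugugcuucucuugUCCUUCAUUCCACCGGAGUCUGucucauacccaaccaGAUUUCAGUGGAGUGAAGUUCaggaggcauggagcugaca
MIR31: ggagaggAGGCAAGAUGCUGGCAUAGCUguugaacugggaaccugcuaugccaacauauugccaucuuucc
In GRCh38.p14 the MIR203A hairpin lies at chr14:104117405-104117514 on the plus strand, MIR205 at chr1:209432133-209432242 on the plus strand and MIR31 at chr9:21512115-21512185 on the minus strand. The deposited values refer to hg19 and carry no coordinates. MIR31 lies in an intron of the long non-coding RNA gene MIR31HG, on the same strand. MIR205 sits at a splice junction of its host MIR205HG: in the GENCODE 29 annotation, 8 of 10 host transcripts span the hairpin, miR-205-5p is intronic in all 8, and miR-205-3p overlaps an exon of 7 of them by up to 20 of its 21 bases.

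Each file gives 1 RPKM value per miRNA, that is, reads per kilobase of mature sequence and 1000000 reads, as computed by the authors. The reads behind a value could be estimated from the steps on which low values fall. The commonest parental value above 0 was 5.84 RPKM and the commonest sphere value 8.07 RPKM, and each was read as 1 read of a 22 nt miRNA. Multiplied by the RefSeq length, 40.8% of 429 low parental values (under 10 reads) and 39.1% of 348 low sphere values were whole reads within 0.001 read. With lengths 1 base shorter or longer the shares were at most 0.23%, and 65.5% of the low values in either library were whole twelfths of a read. On this estimate miRNAs took 4550662 parental reads, 58.5% of the reads behind the RPKM of that library, and 683674 sphere reads, or 12.1%. Because of that gap, each member is given on 2 scales: RPKM as deposited, and its share of the summed RPKM of all miRNAs, written as a percentage or as rescaled RPKM (column sum 1000000). Fractions of a read also occur among the members, as in the 5.06 estimated sphere reads of miR-205-3p. Intervals are exact 95% Clopper-Pearson intervals of estimated reads, rounded to whole reads, unless stated otherwise. They cover counting error only.

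miR-203a, the differentiation-linked member, had 71582 RPKM in parental cells and 193129 RPKM in spheres. Its share of the miRNA signal was 0.270% (0.265% to 0.275%) in parental cells and 3.51% (3.46% to 3.55%) in spheres. It moved from rank 39 of all names to rank 4, between let-7f-5p and miR-22-3p. Relative to the miRNA total it was 13.0-fold higher in spheres (12.7 to 13.3), a log2 fold of 3.70, and as deposited it was 2.70-fold higher (2.64 to 2.76). The sphere library was therefore the high one on both scales. An estimated 12256 reads in the parental and 23921 in the smaller sphere library stand behind these values. miR-203a was the 1 member of 5 with more estimated reads in spheres, as were 22 of the 269 miRNAs counted as measured (rescaled RPKM of 10 or more as the mean of both libraries).

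miR-205-5p, the ZEB-repressing arm, had 582008 RPKM in parental cells and 107193 RPKM in spheres. Its share of the miRNA signal was 2.19% (2.18% to 2.21%) and 1.95% (1.91% to 1.98%), at rank 9 and rank 10. The share was thus within 2-fold between the libraries (1.13-fold lower in spheres, 1.11 to 1.15), while RPKM as deposited was 5.43-fold lower (5.33 to 5.53). Whether miR-205-5p differs between the cultures therefore depends on the scale. In both libraries it sat beside members of the let-7 family, with let-7e-5p ranked just above it in parental cells and let-7d-5p in spheres.

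miR-31-5p, the growth-linked arm, had 248819 RPKM in parental cells and 85928 RPKM in spheres. Its share was 0.938% (0.929% to 0.947%) and 1.56% (1.53% to 1.59%), at rank 17 and rank 12. Relative to the miRNA total it was 1.66-fold higher in spheres (1.63 to 1.70), below the 2-fold threshold used for a call. As deposited it was 2.90-fold lower (2.83 to 2.96), so the 2 scales gave opposite directions.

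The less abundant arms were present at low levels. miR-205-3p had 789 RPKM in parental cells, on about 129 reads, and 42.8 RPKM in spheres, on about 5 reads. Relative to the miRNA total it was 3.83-fold lower in spheres, with a wide interval of 1.62 to 12.1, and as deposited 18.4-fold lower (7.79 to 58.5). The parental library was the high one on both scales. miR-31-3p, counted here at 22 nt, had 263 RPKM in parental cells on about 45 reads and 210 RPKM in spheres on about 26 reads. Relative to the miRNA total it was 3.84-fold higher in spheres (2.28 to 6.37), whereas as deposited it was 1.25-fold lower, with an interval that spans equality (0.756 to 2.11). Each of these 2 arms passed the filter on low values through 1 library: miR-205-3p was at 7.77 rescaled RPKM in spheres, and miR-31-3p at 9.93 in parental cells.

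**Figure D1:**
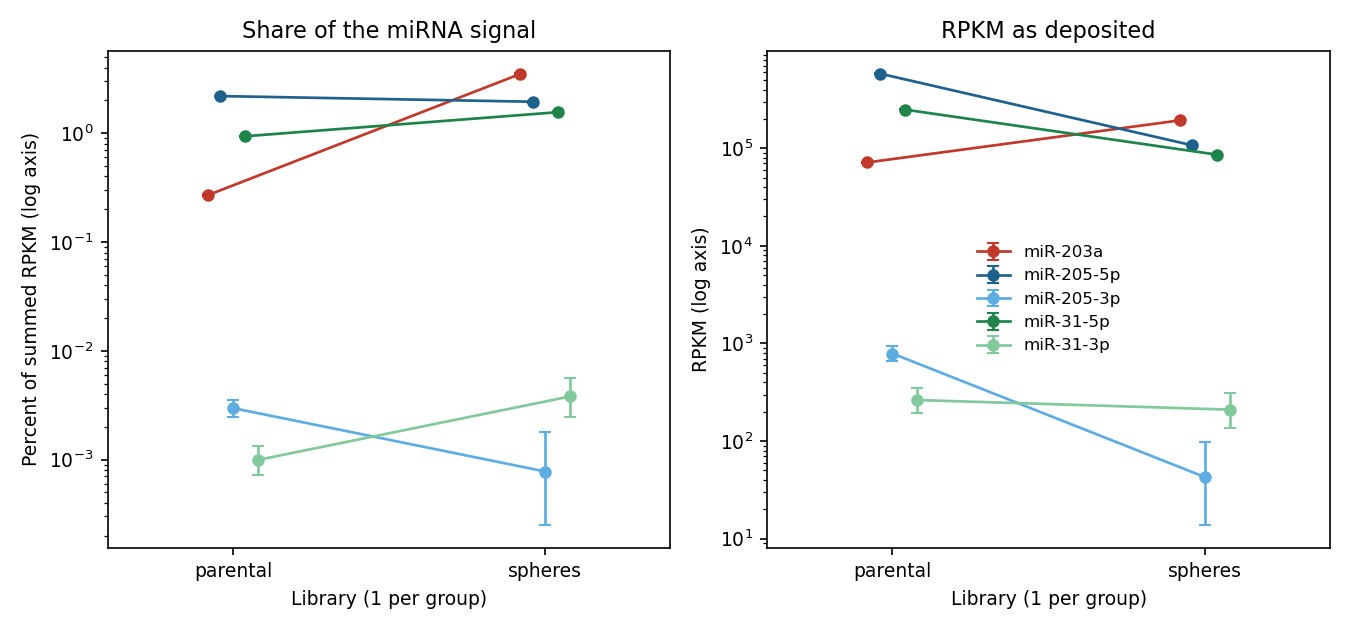
Level of each member in the parental and the sphere library (x axis, 1 library per group) as a percentage of summed RPKM (left, log axis) and as deposited RPKM (right, log axis); bars are 95% counting intervals and are smaller than the points for the 3 abundant members. The line of miR-203a goes up in both panels, from 0.270% to 3.51% and from 71582 to 193129 RPKM, while miR-205-5p and miR-31-5p go down in the right panel.

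Of the 5 members, 2 were at least 2-fold higher in spheres relative to the miRNA total (miR-203a and miR-31-3p), 1 was at least 2-fold lower (miR-205-3p), and the other 2 did not reach 2-fold. The calls of miR-31-3p and miR-205-3p are for arms that passed the filter only through the library where they were high. Among all 269 measured miRNAs, 23.0% were at least 2-fold higher and 19.0% at least 2-fold lower on this scale. As deposited, 1 member was higher (miR-203a), 3 were lower and 1 did not reach 2-fold, beside 6.32% of measured miRNAs higher and 79.6% lower. The median log2 fold of all measured miRNAs was -2.25 as deposited and 0.02 after rescaling. Of the lower members, miR-205-5p (-2.44) lay near that median as deposited and miR-31-5p (-1.53) above it, at rank 73 of 269. miR-205-3p (-4.19) lay further down, the 12th from the lowest of 269 after rescaling. Apart from the pseudocount, each log2 fold as deposited is the rescaled one shifted by -2.27, the log2 ratio of the column sums. That shift goes with the smaller miRNA share of the sphere library given above, and what led to that share was not tested. In RNA from whole cultures, fewer cells that carry a miRNA and less of it per cell cannot be told apart.

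Among the 54 miRNAs whose rescaled RPKM averaged 1000 or more, miR-203a had the second highest log2 fold, after miR-4792 (5.24), and was followed by miR-200a-3p (2.57) and miR-141-3p (2.18). As deposited, 2 of these 54 were at least 2-fold higher, miR-4792 and miR-203a, and 3 were above 0. miR-4792 and this level of 1000 were chosen after their values were seen. Over all 269 measured miRNAs, miR-203a had rank 14 by log2 fold on either scale, with less abundant miRNAs above it. In percentage points of the miRNA signal, miR-203a gained 3.24, the second largest gain after that of miR-21-5p (7.07). The largest losses were those of let-7a-5p (-6.38) and let-7f-5p (-3.15). The 3 main arms together made up 3.40% of the miRNA signal in parental cells and 7.01% in spheres, and miR-205-5p contributed a small loss to this sum (-0.25).

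**Figure D2:**
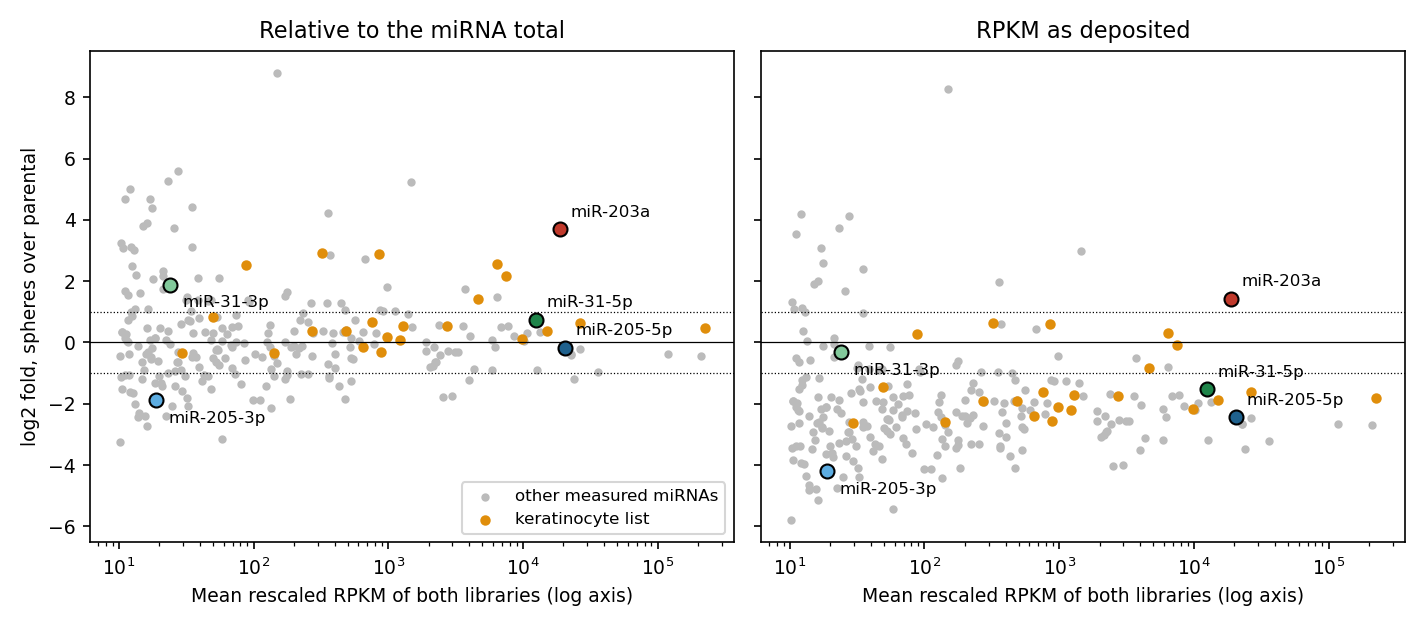
Log2 fold of spheres over parental (y axis) against the mean rescaled RPKM of both libraries (x axis, log) for the 269 measured miRNAs, relative to the miRNA total (left) and as deposited (right); dotted lines mark 2-fold. miR-203a is above the upper dotted line in both panels at log2 folds of 3.70 and 1.43, whereas miR-31-5p and miR-205-5p drop below the lower line in the right panel (-1.53 and -2.44).

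Ratios between members within a library do not depend on how the libraries are scaled. In parental cells the order was miR-205-5p, miR-31-5p, miR-203a, miR-205-3p and miR-31-3p. In spheres it was miR-203a, miR-205-5p, miR-31-5p, miR-31-3p and miR-205-3p. The counting intervals of neighbours did not overlap in either order, and the spread between cultures is unknown.

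The balance between miR-203a and miR-205-5p, the differentiation-linked miRNA and the ZEB repressor, differed most of the 3 pairs of main arms. As a ratio of RPKM, which is per length, miR-203a over miR-205-5p was 0.123 in parental cells (0.121 to 0.125) and 1.80 in spheres (1.76 to 1.84). The ratio was 14.6 times higher in spheres (14.2 to 15.1, normal approximation on the log scale). miR-203a over miR-31-5p was 0.288 in parental cells (0.282 to 0.294) and 2.25 in spheres (2.20 to 2.30), a ratio 7.81 times higher (7.58 to 8.06). miR-31-5p over miR-205-5p was 0.428 (0.423 to 0.432) and 0.802 (0.781 to 0.823), 1.88 times higher in spheres (1.82 to 1.93). miR-205-5p was thus the more abundant of this last pair in both libraries, while both ratios with miR-203a crossed 1.

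The ratios of the 5p to the 3p arm of miR-205 and of miR-31 differed between the libraries in opposite directions. For miR-205, 5p over 3p was 737 in parental cells (620 to 883) and 2505 in spheres (1073 to 7716), 3.40 times higher in spheres (1.44 to 10.8). For miR-31, 5p over 3p was 945 in parental cells (706 to 1296) and 409 in spheres (279 to 627), 2.31 times lower in spheres (1.37 to 3.83). The intervals of the changes of 3.40 and 2.31 come from the 3p reads alone, with the 5p reads taken as fixed. The 5p arm dominated both hairpins in both libraries, and the counting intervals of the ratios did not overlap between the libraries.

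Both arms were measured for 50 hairpins, which give the background for these shifts. The 3p arms of miR-205 and miR-31 each passed the filter only through the library where they were high. With 0.5 rescaled RPKM added to each arm, 5p over 3p was at least 2-fold higher in spheres for 10.0% of the hairpins and at least 2-fold lower for 30.0%. miR-205, at a log2 shift of 1.70, had the second largest shift towards 5p, on about 5 sphere reads of the 3p arm. It lay between miR-181c (1.82) and miR-21 (1.36). miR-31, at -1.15, was the 11th of 50 from the 3p end, where miR-141 (-2.88), miR-200a (-2.49) and miR-25 (-2.23) had the largest shifts. With 5 rescaled RPKM added, the shift of miR-31 no longer reached 2-fold (-0.80).

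**Figure D3:**
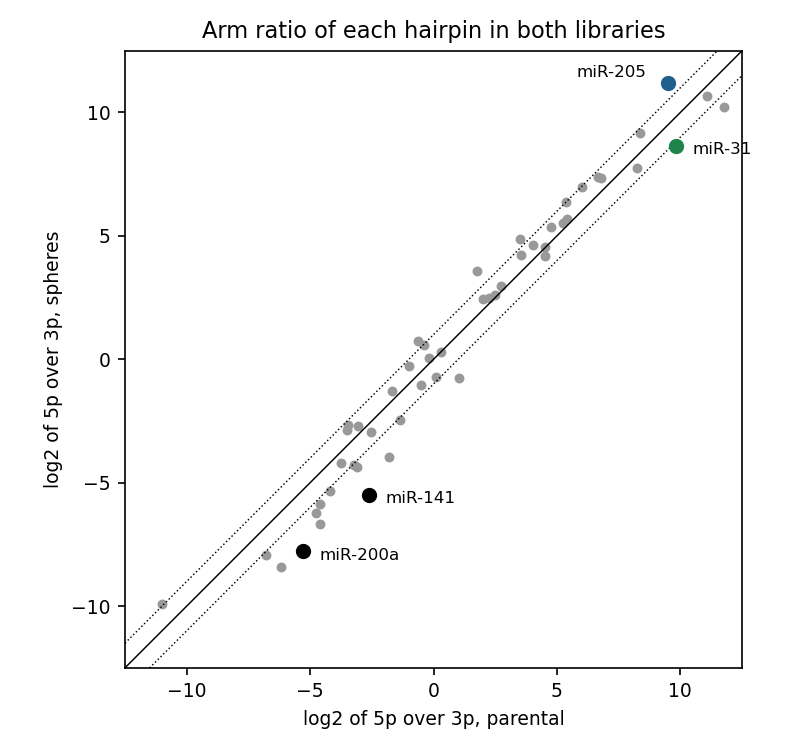
Log2 ratio of the 5p to the 3p arm in parental cells (x axis) and spheres (y axis) for the 50 hairpins with both arms measured; the solid line is equality and the dotted lines are 2-fold shifts. miR-205 lies above the upper dotted line (shift 1.70) and miR-31 below the lower one (-1.15).

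The miR-203a locus is read on both strands in the annotation. MIR203B, at chr14:104117418-104117503 on the minus strand, lies within the span of MIR203A, and its 5p arm is complementary to 21 bases of the miR-203a sequence shown above. miR-203b-5p was listed at 0 in parental cells, which allows up to 3 reads or 17.5 RPKM, and at 4.04 RPKM in spheres, the value of 0.5 read. Beside 12256 and 23921 reads of miR-203a, reads of the 2 strands were thus not pooled under both names. miR-203b-3p had 179 RPKM in parental cells, on 32 reads, and 120 RPKM in spheres, on 15.5 reads. It was 3.22-fold higher in spheres relative to the miRNA total (1.57 to 5.93). It was 1.49-fold lower as deposited, with an interval that spans equality (0.812 to 3.07). This arm passed the filter on low values only through its rescaled sphere level of 21.7, because its rescaled parental level was 6.74.

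The measured miRNAs nearest to each member in level over the 2 libraries were found by Euclidean distance on the log2 rescaled scale, where 1 unit is a 2-fold difference in 1 library. For miR-203a they were miR-141-3p at a distance of 1.52 and miR-200a-3p at 1.75, so no measured miRNA lay within a 2-fold difference of its pair of levels. For miR-205-5p they were let-7e-5p (0.22) and let-7d-5p (0.23), and for miR-31-5p miR-30d-5p (0.33) and miR-26a-5p (0.41). For miR-205-3p they were miR-942 (0.39) and miR-93-3p (0.41), and for miR-31-3p miR-4454 (0.068) and miR-22-5p (0.21). The 2 libraries give only 2 points per miRNA, so this likeness describes levels and not a shared response.

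Other miRNAs with known roles in keratinocytes were taken from a list of 26, of which 22 were measured. Relative to the miRNA total, 6 of the 22 were at least 2-fold higher in spheres and none was at least 2-fold lower, beside 23.0% and 19.0% of all measured miRNAs. The higher count is thus near the background. The list's median log2 fold was 0.49 beside 0.02 for all measured miRNAs. As deposited, none of the 22 was at least 2-fold higher, 16 were at least 2-fold lower and the other 6 did not reach 2-fold, beside 6.32% of all measured miRNAs higher and 79.6% lower. The median on that scale was -1.78 beside -2.25. miR-203a, which is not on this list, was higher on both scales.

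Among the 6 higher list members, miR-24-3p, which takes part in keratinocyte differentiation, went from 205 in parental cells to 1509 rescaled RPKM in spheres (log2 fold 2.87). miR-34a-5p, which p63 represses in keratinocytes, had 25.9 and 151 (2.51). The ZEB repressors miR-200a-3p and miR-141-3p had log2 folds of 2.57 and 2.18. The other ZEB repressors of the list did not reach 2-fold, with miR-200c-3p at 0.66, miR-429 at 0.37 and miR-200b-3p at -0.30, beside -0.17 for miR-205-5p. The hypoxia-induced miR-210 (2.91) and miR-181a-5p (1.43), linked to keratinocyte senescence, were the others. Of the remaining list members, the 4 most abundant lay within 2-fold: miR-21-5p at 0.46, miR-22-3p at 0.65, miR-30a-5p at 0.38 and miR-191-5p at 0.11.

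**Figure D4:**
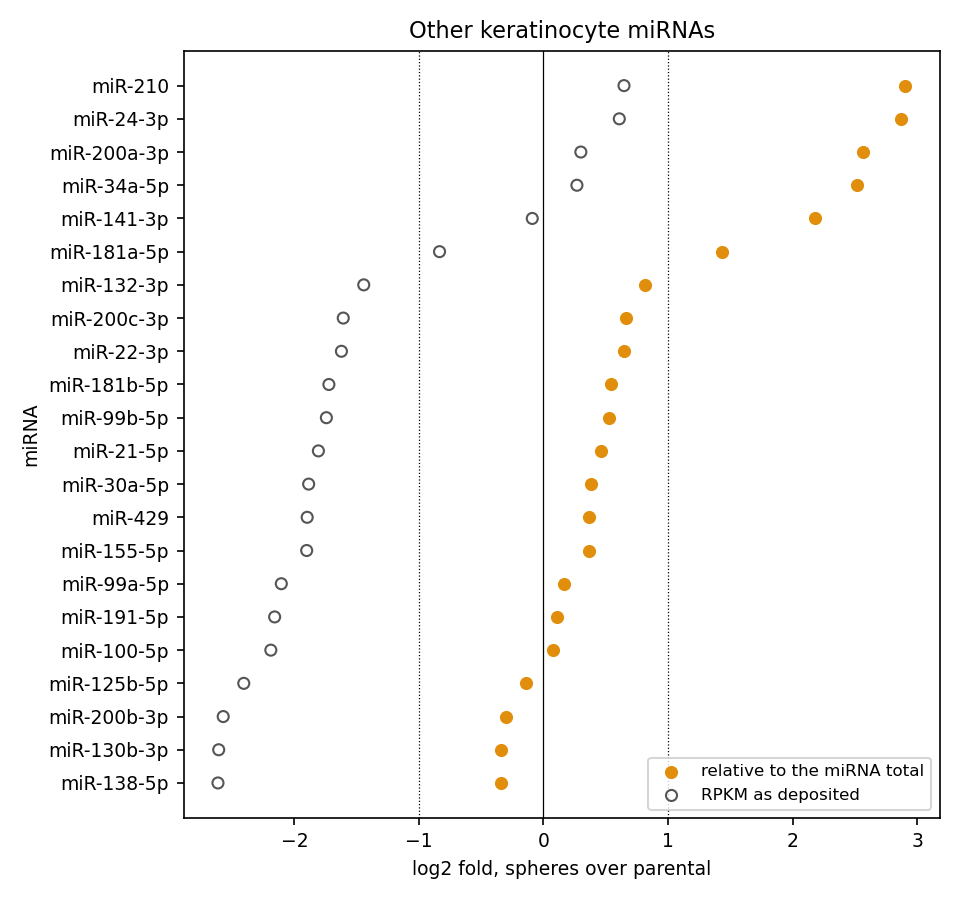
Log2 fold of spheres over parental (x axis) for the 22 measured miRNAs of the keratinocyte list (y axis), relative to the miRNA total (filled) and as deposited (open); dotted lines mark 2-fold. There are 6 filled points beyond 2-fold higher, and no open point does.

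Among epithelial markers, miR-205-5p, miR-31-5p and miR-203a ranked 9, 17 and 39 in parental cells and 10, 12 and 4 in spheres. They are members chosen for their squamous roles, so their levels are no independent check of the cell type. The epithelial miR-200c-3p, which is not a member, had 585 and 925 rescaled RPKM. Markers of other cells were mostly low, but the mesenchymal miR-10b-5p exceeded miR-200c-3p in both libraries. The blood miR-486-5p exceeded it in parental cells. Of 6 mesenchymal miRNAs 2 were measured, with a level summed over the list of 3053 (parental) and 2569 (spheres) rescaled RPKM, nearly all of it miR-10b-5p (3024 and 2493). The other measured one, miR-143-3p, was at 25.9 and 66.3, and the 4 below the filter were at most 2.02 in parental cells and 7.08 in spheres. Of 7 blood cell miRNAs 1 was measured, miR-486-5p, at 741 and 207, and the list summed to 745 and 241. Of the other blood miRNAs, miR-150-5p was at 0 and 13.2, miR-142-5p at 3.25 and 12.3, miR-451a at 0.44 and 5.86, miR-142-3p at 0 and 2.80, and miR-223-3p at 0.084 and 0, while miR-144-3p was at 0 in both. Both endothelial miR-126 arms were measured, at a sum of 192 and 445. Of 7 muscle, liver and neural miRNAs, the neural miR-9-5p was measured, at 348 and 429. Below the filter, miR-133a was at 1.98 and 14.8, miR-1 at 0 and 2.20 and miR-9-3p at 10.3 and 4.89, and miR-206, miR-122-5p and miR-124-3p were at 0 in both. The part of these differences in the values of the members was not tested.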

How the data were processed

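Small RNA libraries were made with the TruSeq kit from 1 µg of total RNA, per the labels' protocols, and hg19 is named in the submitters' processing notes. The aligner, the counting tool, the miRNA release and the treatment of multiply matching reads were not given in the sources used here. The authors deposited 1 RPKM value per mature name, per the file headers, and no counts. From these, each column was rescaled to 1000000, and log2 folds were taken of spheres over parental with a pseudocount of 0.5, which understates the change of low miRNAs. Higher or lower means at least 2-fold. Reads were estimated from the value of 1 read and the RefSeq mature length, known for 1715 names, or else 22 nt. A value of 0 allows 3 reads.

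No test between groups was possible with 1 library each. The members, lists and rules were chosen with earlier results of these data known. The miRNAs named were the members, the miR-203b arms, sharers of a member's seed, the 2 nearest miRNAs of each member, list members past 2-fold with the 4 most abundant others, and the 3 largest arm shifts each way. Rank neighbours, share changes and marker miRNAs were added. Calls were run on simulated data that held counting error only and left the most abundant parental miRNAs unchanged. Such data cannot show the spread between cultures. Python 3.11.15, pandas 2.3.3, SciPy 1.17.1 and edlib 1.3.9.post1 were used. Alternatives covered the scaling, pseudocount, filter, read length and summed arms.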

Additional observations from a re-analysis of the deposited data

How the results depend on the processing

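miR-203a was at least 2-fold higher in spheres under every scaling and pseudocount tried, with log2 folds of 1.43 as deposited, 3.48 by the upper quartile, 3.43 by the total that leaves out the 20 most abundant miRNAs, and 3.54 by the trimmed mean. In the same order miR-205-5p had -2.44, -0.39, -0.44 and -0.33, and miR-31-5p -1.53, 0.51, 0.46 and 0.58. As deposited, miR-205-3p had -4.19, and miR-31-3p turned negative (-0.33) and lost its call. Members at least 2-fold higher and lower then numbered 1 and 3, all measured miRNAs 17 and 214, and the keratinocyte list 0 and 16. Apart from the pseudocount, the deposited and the rescaled log2 folds differ by the column sums alone, a shift of -2.27 for every miRNA. The list median was -1.78 as deposited, 0.47 by the median of ratios, 0.27 by the upper quartile, 0.22 by the total without the 20 most abundant, 0.34 by the trimmed mean, 0.57 with no filter and 0.46 at a mean of at least 100. Without a filter on low values, 193 of 2038 miRNAs were at least 2-fold higher and 180 lower, and 77 and 75 of 559 hairpins shifted to 5p and 3p. At a mean of at least 100 these were 23 and 18 of 129 miRNAs, and 1 and 5 of 15 hairpins. Asking for the whole counting interval beyond 2-fold left 46 of the 62 higher and 18 of the 51 lower. Of 108 recomputed values 72 stayed the same within counting error or, for counts, 1.5 times. Another 35 moved, among them the small changes of miR-203a by the upper quartile and the trimmed mean, and 1 reversed (miR-31-3p as deposited). The 5 sphere reads of miR-205-3p limit its fold and the arm ratio of miR-205. No paired analysis was possible because each group has a single library, and no replicate could be left out.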
